A study of Mus musculus with 6 samples.

Results

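The 37 genes encoded by the mouse mitochondrial genome were followed through single cells of cultured choroid. They were all genes of the count table whose symbol begins with mt-, after the Ensembl identifiers had been matched to symbols, and they made up 37 of 52636 genes in the table: 13 mRNAs, 2 rRNAs and 22 tRNAs. All 37 had at least 1 UMI, a tag that counts a captured RNA molecule once. The study compared RPE and choroid cells grown in culture from male C57BL/6J mice aged 12 to 16 months, with 3 samples homozygous for the intact Dram2 gene (wt/wt) and 3 homozygous for its knockout (ko/ko). The ko allele is a constitutive CRISPR/Cas9 deletion of exon 4 of Dram2, a gene for a lysosomal membrane protein, so every cell type of those samples carried it. All 3 wt/wt samples and ko/ko replicates 1 and 2 were labelled batch 1, and ko/ko replicate 3 was the only sample of batch 2. The labels do not say whether the samples came from separate animals, so the p-values measure the spread between these samples only.

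The mitochondrial genome is a small circle present in many copies in each cell, and both of its strands are transcribed as long precursors that cover nearly the whole circle. tRNAs lie between most of the mRNAs and rRNAs, and cutting the precursor at the tRNA ends frees the other RNAs. Most of the mRNAs then receive a short poly(A) tail, which in several of them also completes the stop codon. All the mRNAs code for subunits of the respiratory chain or of ATP synthase. A library primed on poly(A), as here, reads the 3′ ends of such RNAs, and the mitochondrial share of UMIs per cell is widely used as a measure of cell quality.

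The 3′ ends of the mRNAs with most UMIs are shown because a library primed on poly(A) is meant to read this end. Where in each gene the tags lay was not tested. Each line gives the last 30 bases on the strand of the gene, from the GENCODE M21 transcripts on GRCm38, with the stop codon, or the single base left of it in the gene, in capitals.
mt-Cytb, chrM:15259-15288, plus strand: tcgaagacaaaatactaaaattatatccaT
mt-Nd4, chrM:11515-11544, plus strand: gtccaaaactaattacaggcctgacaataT
mt-Nd1, chrM:3678-3707, plus strand: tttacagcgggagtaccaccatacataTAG
mt-Nd2, chrM:4922-4951, plus strand: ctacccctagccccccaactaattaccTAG

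The tRNAs that follow mt-Nd1 and mt-Nd2 carried most tRNA UMIs. Their whole sequences are printed with the bases shared with the mRNA before them in capitals.
mt-Ti, chrM:3706-3774, plus strand: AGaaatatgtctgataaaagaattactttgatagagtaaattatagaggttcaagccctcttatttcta
mt-Tw, chrM:4950-5016, plus strand: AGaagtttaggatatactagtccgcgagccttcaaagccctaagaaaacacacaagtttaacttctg

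mt-Atp8, the only member called between the genotypes, is printed whole. Capitals mark the 43 of its 204 bases that also belong to the start of mt-Atp6, which leaves 161 bases of its own.
mt-Atp8, chrM:7766-7969, plus strand: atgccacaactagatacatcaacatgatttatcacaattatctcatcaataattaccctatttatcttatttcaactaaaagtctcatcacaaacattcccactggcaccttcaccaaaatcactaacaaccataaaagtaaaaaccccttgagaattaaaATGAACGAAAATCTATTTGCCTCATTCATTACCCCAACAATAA

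The 6 samples held 2140 to 6648 cells and 96808998 to 122746184 UMIs each, 669049435 UMIs from 25428 cells in all. Median UMIs per cell ranged from 16453 in ko/ko replicate 2 to 47373 in ko/ko replicate 1. Levels are given as CPM, the UMIs of a gene per 1000000 UMIs of the same cells. Dram2 itself was read at 33.4, 39.6 and 38.1 CPM in wt/wt and at 30.7, 28.3 and 30.1 in ko/ko. The groups did not overlap, but 3′ tags come mainly from the end of the transcript and not from exon 4, so these values do not check the deletion. Cell types are the deposited annotation. The cells labelled RPE carried Krt18 at 473 and Otx2 at 74.1 CPM but Rpe65 at 0.429 and Rlbp1 at 4.84. Those labelled Pericyte had 8.44 CPM of Rgs5 and none of Higd1b or Kcnj8. Higd1b was at most 0.0554 in any type, and Kcnj8 was at 22.6 in Fibroblast 2 and at most 0.733 elsewhere. Cspg4, another pericyte marker, was at 207 in the Pericyte cells, the highest of the 8 types. These cells also had 176 of Sox10, a transcription factor of neural crest derivatives such as Schwann cells and melanocytes. With markers on both sides, the label is used below only as a name.

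The members held 20904563 UMIs, 3.12% of all UMIs. Of these, 85.8% fell on the 13 mRNAs, 13.8% on the 2 rRNAs and 0.391% on the 22 tRNAs. The mitochondrial share of a sample was 2.58%, 3.59% and 3.20% in wt/wt replicates 1 to 3 and 3.33%, 2.68% and 3.40% in ko/ko replicates 1 to 3. wt/wt replicate 1 and ko/ko replicate 2 were the lowest and the genotypes overlapped. The means were 3.12% ± 0.507 and 3.14% ± 0.396 (SD, n = 3 each), which an exact permutation test did not separate (two-sided p = 1). With 3 samples against 3, the smallest p this test allows is 0.1.

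The members covered more than 3 orders of magnitude. The CPM of a gene was not divided by its length, because a 3′ tag counts a molecule once whatever its length. The 5 members mt-Cytb, mt-Nd4, mt-Nd1, mt-Nd2 and mt-Rnr2 were above 3000 CPM in every sample. Among the 15 mRNAs and rRNAs divided by gene length, mt-Cytb stayed the highest (8582 CPM per kilobase), followed by mt-Nd1 (5929) and mt-Nd4 (4318), and mt-Atp8 was the lowest (9.16).

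mt-Cytb codes for cytochrome b, the mitochondrially encoded subunit of complex III. It had 8095, 10878 and 10113 CPM in wt/wt replicates 1 to 3 and 10316, 8982 and 10520 in ko/ko. wt/wt replicate 1 was the lowest and the genotypes overlapped.

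The 7 mt-Nd mRNAs code for the membrane arm of complex I, the NADH dehydrogenase. mt-Nd4 had 4402, 7559 and 6225 CPM in wt/wt and 6176, 4514 and 6828 in ko/ko. mt-Nd1 had 4505, 6497 and 5881 in wt/wt and 6122, 4761 and 6279 in ko/ko. In both genes wt/wt replicate 1 and ko/ko replicate 2 were the lowest. mt-Nd2 had 3290, 4784 and 3754 in wt/wt and 3953, 3142 and 4123 in ko/ko, with the same pair of samples lowest but ko/ko replicate 2 below wt/wt replicate 1. mt-Nd5 stayed between 514 and 580, and mt-Nd6, the only mRNA on the other strand, ran from 37.7 to 52.2.

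The short complex I mRNAs mt-Nd3 and mt-Nd4l differed among samples in opposite ways. mt-Nd3 had 5.58, 12.5 and 11.4 CPM in wt/wt and 10.3, 2.62 and 6.70 in ko/ko. mt-Nd4l had 12.5, 3.95 and 5.98 in wt/wt and 6.59, 13.2 and 4.36 in ko/ko. wt/wt replicate 1 and ko/ko replicate 2 were thus the highest for mt-Nd4l and the lowest for mt-Nd3, across genotypes. In the cells labelled Fibroblast, mt-Nd4l had 12.6 and 13.9 in those samples and 4.02 to 6.16 in the other 4. The order was not the same in every type, and in Endothelial mt-Nd4l was highest in ko/ko replicate 1 (12.0).

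mt-Co1, mt-Co2 and mt-Co3 code for the catalytic core of complex IV, cytochrome c oxidase. mt-Co1 ranged from 448 to 625 CPM. mt-Co2 was 131, 134 and 132 in wt/wt and 203, 157 and 106 in ko/ko, so that the ko/ko samples lay on both sides of the wt/wt samples. mt-Co3 had 130, 165 and 148 in wt/wt and 224, 145 and 130 in ko/ko.

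mt-Atp6 and mt-Atp8 code for membrane subunits of ATP synthase. mt-Atp6 behaved like mt-Co2, with 118, 120 and 117 CPM in wt/wt and 176, 140 and 102 in ko/ko. mt-Atp8 had the fewest UMIs of the 13 mRNA genes, 2.13, 3.12 and 3.23 CPM in wt/wt and 1.73, 0.420 and 0.599 in ko/ko, 1271 UMIs in all. Every ko/ko sample was below every wt/wt sample, with ko/ko replicate 1 the nearest. The last 43 bases of mt-Atp8 lie in mt-Atp6, with no tRNA between the 2 genes, and mt-Nd4l likewise shares 7 bases with mt-Nd4. Whether the tags of mt-Atp8 come from an RNA of its own or from one shared with mt-Atp6 was not tested.

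The rRNAs of the mitochondrial ribosome were read at unlike levels. mt-Rnr2, the large rRNA, had 3506, 3899 and 3782 CPM in wt/wt and 4179, 3387 and 4228 in ko/ko. mt-Rnr1, the small rRNA, had 435, 483 and 502 in wt/wt and 570, 423 and 555 in ko/ko. ko/ko replicate 2 was the lowest for both.

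**Figure D1:**
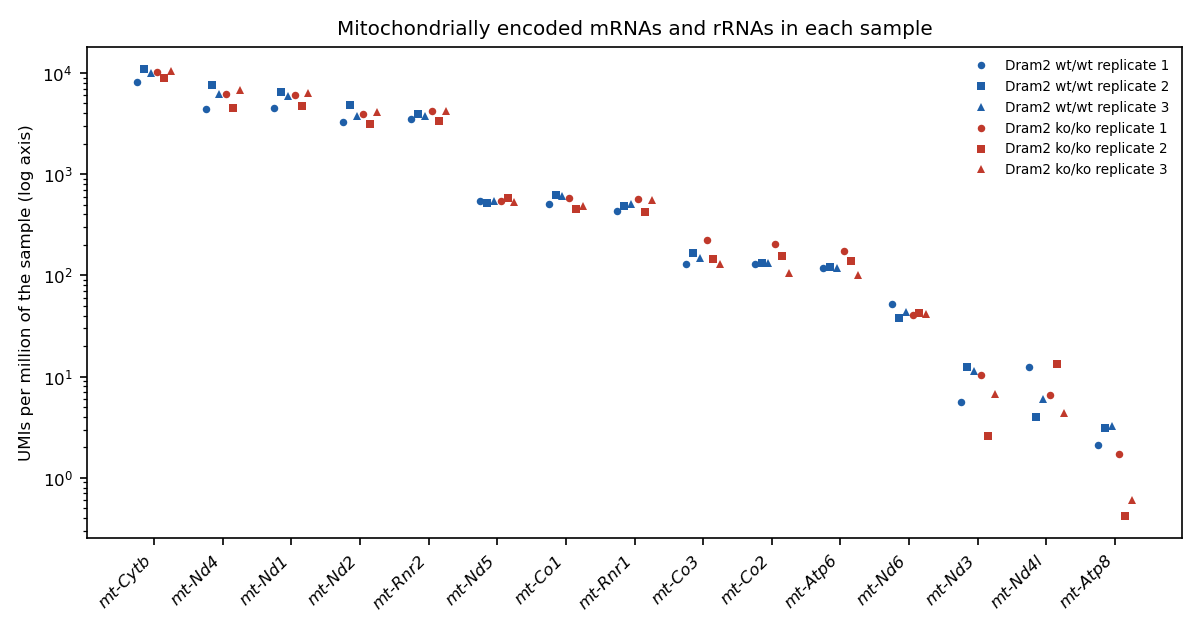
CPM of the sample (log axis) for the 13 mRNAs and 2 rRNAs, ordered by mean level, with a point for each of the 3 wt/wt (blue) and 3 ko/ko (red) samples. The genotypes overlap for every gene shown except mt-Atp8, where the ko/ko samples sit between 0.420 and 1.73 and the wt/wt samples between 2.13 and 3.23.

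tRNA genes carried few tags, and the tags were unevenly spread among them. Of the 22, 10 reached 1 CPM in any sample, and the other 12 had means of 0.0212 to 0.628. mt-Ti and mt-Tw, the tRNAs for isoleucine and tryptophan, were the highest. mt-Ti had 25.5, 42.5 and 54.3 CPM in wt/wt and 49.7, 26.7 and 40.5 in ko/ko. mt-Tw had 19.2, 39.7 and 40.7 in wt/wt and 40.02, 18.3 and 26.2 in ko/ko. wt/wt replicate 1 and ko/ko replicate 2 were again the 2 lowest samples.

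mt-Tt (threonine) ranged from 12.8 to 25.8 and mt-Tl1 (leucine) from 13.4 to 23.7 CPM. mt-Tm (methionine, 2.08 to 3.41) and mt-Tp (proline, 2.05 to 3.84) followed. mt-Tc (cysteine), mt-Tq (glutamine), mt-Tf (phenylalanine) and mt-Tv (valine) had means of 1.11, 1.08, 0.909 and 0.850. The 4 highest tRNAs each begin within or directly after an abundant member, mt-Nd1, mt-Nd2, mt-Rnr2 or mt-Cytb. Their levels were 0.702%, 0.799%, 0.481% and 0.209% of that neighbour. They are 4 of the 8 tRNAs that start within 2 bases of the end of an mRNA or rRNA on the plus strand. The other 4 of these 8 had means below 1 CPM: mt-Tv at 0.850 after mt-Rnr1, mt-Th at 0.563 after the abundant mt-Nd4, mt-Tg at 0.481 after mt-Co3 and mt-Tr at 0.176 after mt-Nd3. The 6 other plus-strand tRNAs reached means up to 2.83 and the 8 on the minus strand up to 2.82. Whether a tag came from the tRNA or from an uncut neighbour was not tested.

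Several members share their 3′ end with pseudogenes in the nuclear genome, and for these the counts are uncertain. Stretches of 31 bases from the last 400 bases of each gene were looked up in all other annotated transcripts. The shared part was 100% for mt-Co1 and mt-Co2, 99.7% for mt-Co3, 99.2% for mt-Atp6, 98.9% for mt-Nd4l and 98.1% for mt-Nd3. It was 30.3% for mt-Nd2, 16.8% for mt-Nd5, 8.65% for mt-Cytb, 7.47% for mt-Atp8 and 7.30% for mt-Nd6, and 0 for mt-Nd1, mt-Nd4 and both rRNAs. In 7 pseudogenes of the count table at least 50% of the 31-base stretches of their own last 400 bases were found in the mitochondrial genome. The match of Gm28439 lies in mt-Nd4, outside the last 400 bases of that gene. All 7 lie side by side on the minus strand of chromosome 1, from 24611535 to 24616197 on GRCm38. A gap lies between Gm10925, the counterpart of mt-Atp6, which ends at 24614651, and Gm28661, that of mt-Co2, which starts at 24614885. In the mitochondrial genome most of mt-Atp8 lies between mt-Co2 and mt-Atp6. Whether the gap holds a copy of mt-Atp8 was not tested, so its 7.47% covers annotated transcripts only.

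Across samples the pseudogenes of the short complex I mRNAs were high and low where these were. Gm10222, the counterpart of mt-Nd4l, had 14.0, 5.05 and 7.19 CPM in wt/wt and 7.26, 14.3 and 4.78 in ko/ko, with the same 2 samples high as for mt-Nd4l. Gm28438, the counterpart of mt-Nd3, had 4.70, 11.9 and 10.4 in wt/wt and 8.39, 2.25 and 5.23 in ko/ko, the same samples low. Gm28439 went the other way from its counterpart mt-Nd4: it had 19.1, 13.2 and 16.5 in wt/wt and 13.9, 20.1 and 7.40 in ko/ko, highest in the 2 samples that were lowest for mt-Nd4. Mean levels of the pseudogenes were 119% of mt-Co3, 113% of mt-Nd4l, 112% of mt-Atp6, 92.5% of mt-Co2, 87.4% of mt-Nd3, 20.2% of mt-Co1 and 0.253% of mt-Nd4. How the counting software divided reads between the 2 loci was not tested. Together the 7 pseudogenes held 0.0605% of all UMIs, and with them the mean mitochondrial share was 3.19%. Reads that matched both loci and were counted at neither are in none of these values, and the counts cannot show how many there were. For the members with such a pseudogene, the levels, ranks and fold changes given here are those of the counted reads only.

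**Figure D2:**
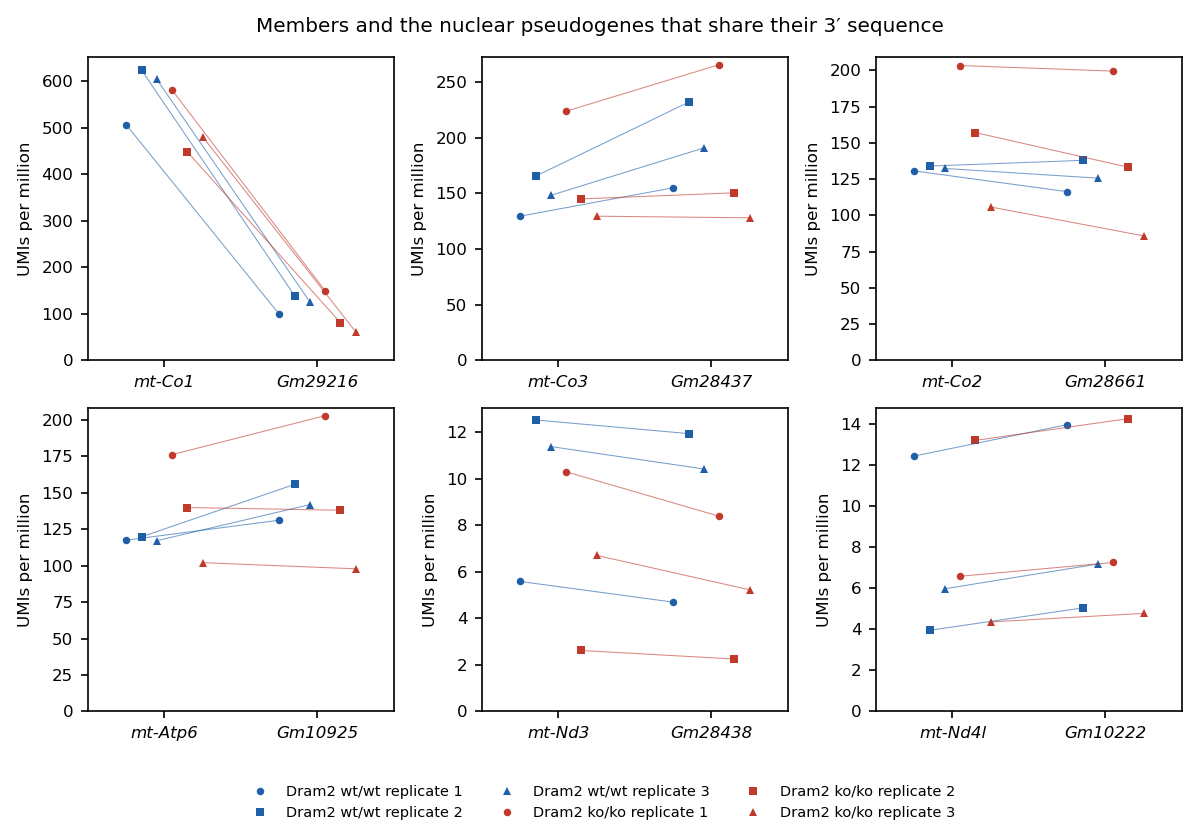
CPM in each of the 6 samples for 6 members (left in each panel) and the nuclear pseudogene that shares at least 98.1% of their last bases (right), joined by sample. For mt-Co3, mt-Co2, mt-Atp6, mt-Nd3 and mt-Nd4l the pseudogene was read at 87.4% to 119% of the member, and for mt-Co1 at 20.2%.

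Between cell types the mitochondrial share of UMIs, summed over the cells of a sample, was lowest in the cells labelled Endothelial at 1.34% to 2.23% over 6 samples. Fibroblast 2 followed at 1.73% to 2.74% and RPE at 2.03% to 3.30%. Each step held in every sample: Endothelial was below Fibroblast 2 in 6 of 6 samples and Fibroblast 2 below RPE in 6 of 6. Myeloid (2.48% to 3.45%, the 4 samples with at least 10 such cells), Pericyte (2.52% to 3.70%), Fibroblast (2.68% to 3.64%) and Fibroblast proliferating (2.73% to 3.57%) were close together. Among them no step between neighbours held in every sample, with Pericyte below Fibroblast in 5 of 6 and Fibroblast below Fibroblast proliferating in 5 of 6. These orders are descriptions, with no test.

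The annotation Fibroblast-like stood apart, at 6.12% to 16.8% of UMIs. Its cells were not alike: the median cell had 3.29%, the lowest 5% of cells were at or below 0.0350% and the highest 5% at or above 92.1%. Of its 1121 cells, 326 were above 20% and 203 below 0.5%. In the whole series 469 cells (1.84%) were above 20%. Of these, 168 belonged to fibroblast sub-cluster 8, 256 to sub-cluster 6 and 45 to other sub-clusters or types. ko/ko replicates 3 and 1 held 130 and 109 of them, the other 4 samples 36 to 82.

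**Figure D3:**
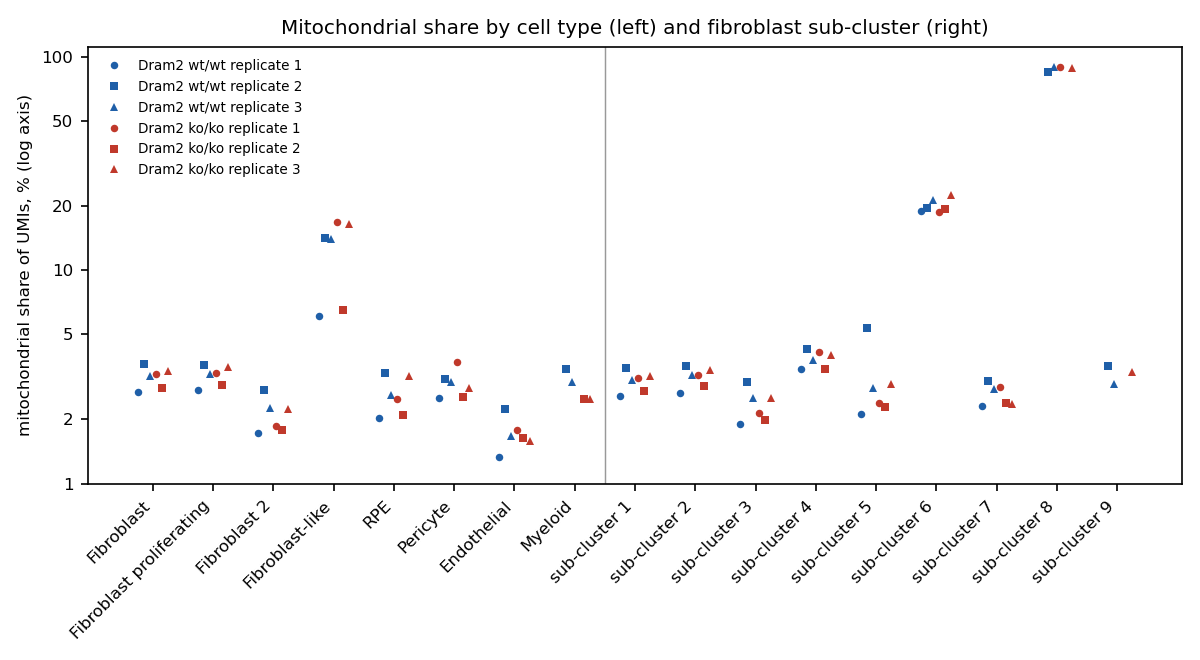
Mitochondrial share of UMIs in percent (log axis) in each sample with at least 10 cells, for the 8 annotated cell types (left) and the 9 fibroblast sub-clusters (right), wt/wt in blue and ko/ko in red. Most units lie between 1.34% and 5.34%, while Fibroblast-like reaches 16.8%, sub-cluster 6 lies at 18.7% to 22.3% and sub-cluster 8 at 84.4% to 89.8%.

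The fibroblast sub-clusters are the deposited ones and were made from expression values that include the members, so differences between them are descriptions. Sub-cluster 1, the largest with 9965 cells, had 2.56% to 3.49% and sub-cluster 2, the proliferating one, 2.66% to 3.56%, higher than sub-cluster 1 in 6 of 6 samples. Sub-cluster 3, which held most Fibroblast 2 cells, was lower at 1.90% to 2.98%. Sub-cluster 4 was higher, at 3.43% to 4.27%, and was above sub-clusters 1, 2, 3 and 7 in 6 of 6 samples. Sub-cluster 7 had 2.31% to 3.04% and sub-cluster 9 had 2.93% to 3.54% in 3 samples.

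Sub-cluster 8 consisted of 168 cells, all annotated Fibroblast-like, and the members made up 57.9% to 95.7% of the UMIs of each. Its median cell had 3150 UMIs, of which 2836 were mitochondrial and 305.5 were not, and 216.5 detected genes. Main fibroblasts, labelled Fibroblast, had a median of 805 mitochondrial UMIs and 25251 others. These medians pool samples of unequal depth. Within each of the 4 samples with at least 10 such cells, the median of mitochondrial UMIs per cell was 1.58 to 3.01 times that of the Fibroblast cells, lowest in ko/ko replicate 1 (2951 against 1864) and highest in wt/wt replicate 3 (2899 against 963). The share was 84.4% and 89.8% in wt/wt replicates 2 and 3 and 89.6% and 88.1% in ko/ko replicates 1 and 3. wt/wt replicate 1 had 5 such cells and ko/ko replicate 2 none, against 89 in ko/ko replicate 1 alone. All together they carried 2.51% of the mitochondrial UMIs of the series. Outside the sub-cluster, 18 cells were above 50%, up to 79.8%.

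Sub-cluster 6 held 477 cells, 193 of them annotated Fibroblast, 168 Fibroblast-like and 115 Fibroblast proliferating. Its mitochondrial share was 18.9%, 19.6% and 21.4% in wt/wt and 18.7%, 19.3% and 22.3% in ko/ko. Its median cell had 1011 mitochondrial UMIs, against 805 in main fibroblasts, and 3688 others. Within samples the ratio of the mitochondrial medians was 1.02 to 1.67. In Malat1, an RNA that stays in the nucleus, this sub-cluster had 89994 ± 19397 UMIs per 1000000 UMIs outside the mitochondrial genome (SD, n = 6), against 17561 ± 2516 in sub-cluster 1. Sub-cluster 8 had 55011 ± 22955 (SD, n = 4).

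Sub-cluster 5 was the reverse in the nuclear RNA. Its 812 cells, 763 of them Fibroblast-like, had 666 ± 448 of Malat1 on the same scale (SD, n = 6), with a median of 127 mitochondrial and 5728.5 other UMIs per cell. Within samples its mitochondrial median was 0.0705 to 0.222 of that in Fibroblast cells. Its mitochondrial share was 2.13%, 5.34% and 2.79% in wt/wt and 2.38%, 2.27% and 2.93% in ko/ko, with wt/wt replicate 2 high. Of its cells, 216 (26.6%) were below 0.5% mitochondrial UMIs and 22 had none, out of 24 such cells in the series. What part broken or emptied cells have in these sub-clusters was not tested.

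The makeup of the mitochondrial UMIs varied among the types. The mean share of mt-Rnr2 was 11.5% to 13.3% in Fibroblast, Fibroblast proliferating and Fibroblast 2 and ran from 6.40% to 18.6% in the other 5. mt-Nd1 held 15.5% to 16.5% in the samples of Fibroblast 2, 17.3% to 18.5% in Fibroblast and 18.6% to 19.8% in Fibroblast proliferating, with no overlap. In the cells labelled Fibroblast, mt-Cytb held 31.7% ± 1.04, mt-Nd4 19.5% ± 1.90, mt-Nd1 17.7% ± 0.464, mt-Nd2 12.3% ± 0.655 and mt-Rnr2 11.7% ± 0.959 of the mitochondrial UMIs (SD, n = 6). Fibroblast-like cells had more of the rRNAs, 18.6% ± 3.25 of mt-Rnr2 and 2.84% ± 0.397 of mt-Rnr1, and less mt-Cytb, 27.0% ± 1.32. Sub-clusters 5 and 8, whose mean mitochondrial shares were 2.97% and 88.0%, had like values of mt-Rnr2, 18.7% ± 2.61 and 17.7% ± 4.002, and of mt-Cytb, 27.0% ± 0.894 and 26.5% ± 1.15. Sub-cluster 1 had 11.6% ± 1.00 and 32.1% ± 1.01.

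Other types departed from the Fibroblast makeup as well. Endothelial cells had 15.6% ± 1.95 of mt-Rnr2 and 26.5% ± 1.89 of mt-Cytb, and the highest shares of mt-Co1 (2.57% ± 0.456) and mt-Nd5 (2.47% ± 0.448) among the 8 types. Cells labelled Pericyte had the lowest mean share of mt-Rnr2, 6.40% ± 1.14, and the highest mean share of mt-Cytb, 33.4% ± 0.877. RPE cells had 7.72% ± 3.47 of mt-Rnr2, and the spread came from ko/ko replicate 3. There mt-Rnr2 had 4548 CPM of the RPE cells, against 1034, 2894 and 1524 in wt/wt and 1461 and 1341 in the other ko/ko samples.

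**Figure D4:**
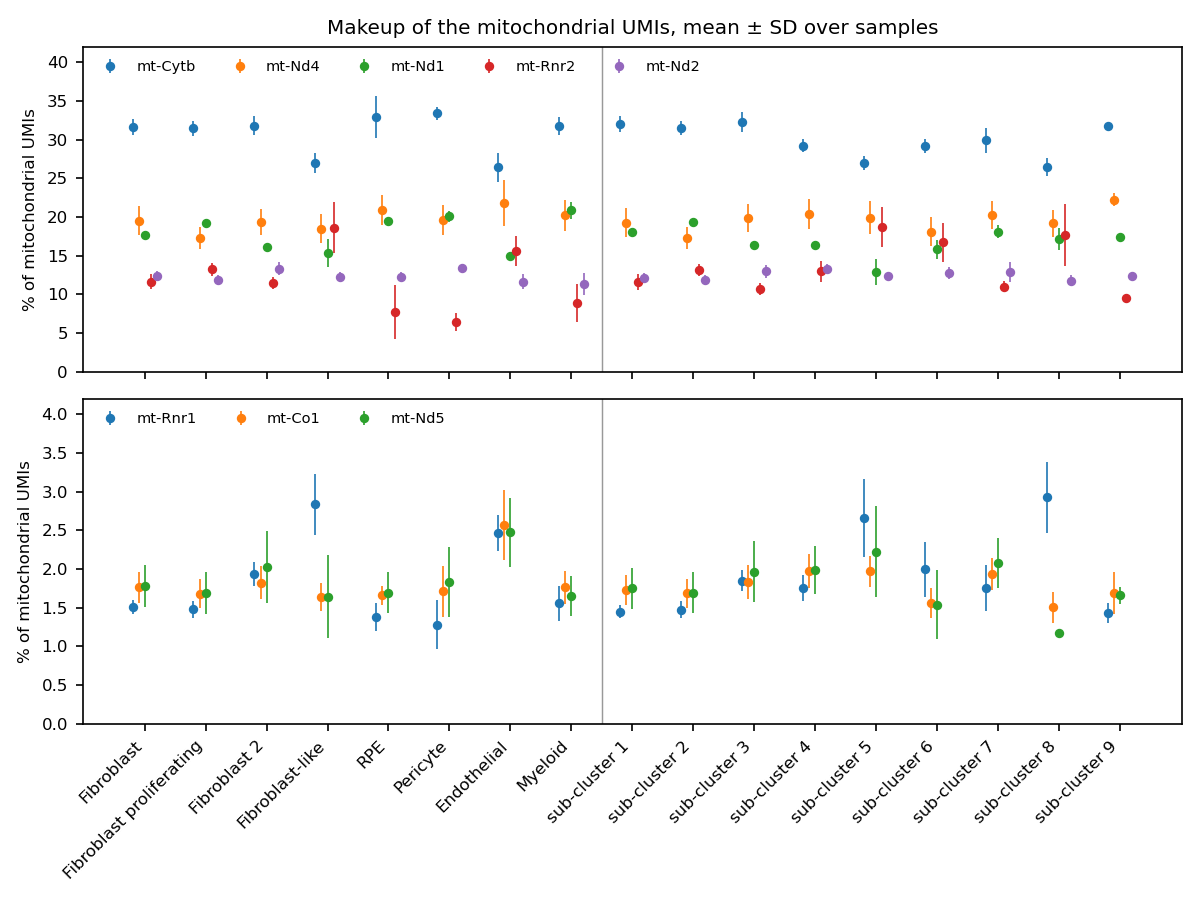
Share of the mitochondrial UMIs held by each of 8 members (percent, mean ± SD over the samples with at least 10 cells) in the 8 cell types (left) and 9 fibroblast sub-clusters (right), abundant members above and mt-Rnr1, mt-Co1 and mt-Nd5 below. mt-Rnr2 ranges from 6.40% in Pericyte to 18.7% in sub-cluster 5, and mt-Cytb is lowest in Endothelial, Fibroblast-like and sub-clusters 5 and 8.

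Between genotypes the mitochondrial share was compared in the whole sample, in the 8 types and in 8 sub-clusters by two-sided exact permutation tests, 17 in all. The raw p ran from 0.333 to 1 and the adjusted p was 1 for each. None of the 17 could have reached 0.05, since the smallest p possible was 0.1 with 3 samples against 3 and 0.333 in Myeloid and sub-cluster 8, with 2 against 2. In Myeloid both ko/ko samples (2.48% each) were below both wt/wt samples (3.45% and 2.98%), at that smallest p. In the other units the genotypes overlapped. In Fibroblast the means were 3.17% ± 0.479 in wt/wt and 3.14% ± 0.312 in ko/ko (SD, n = 3 each). In RPE they were 2.64% ± 0.638 and 2.59% ± 0.549. The largest differences were in Fibroblast-like, 11.4% ± 4.59 against 13.2% ± 5.82, and in sub-cluster 8, 87.1% ± 3.79 against 88.9% ± 1.07 (SD, n = 2 each). Within batch 1 alone, without ko/ko replicate 3, the whole-sample difference (ko/ko minus wt/wt) was -0.120 percentage points against 0.0141 with it.

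The members were then tested gene by gene in sums over the cells of each sample, with voom-limma over all genes that passed the filter on low counts and Benjamini-Hochberg adjustment. In the whole sample 34 of the 37 members passed the filter, 13 with a higher and 21 with a lower value in ko/ko. Single libraries turned that split: 19 were higher without wt/wt replicate 3 and 21 without ko/ko replicate 2. None reached an adjusted p of 0.05, and 0% of the 22580 genes tested did; 1 member, mt-Atp8, had an unadjusted p below 0.05, as 7.01% of all genes did. The quasi-likelihood test of edgeR also called 0 members, and 0 of all genes. DESeq2 called 1 member, mt-Atp8, among 378 genes (1.67% of all), 358 of them lower in ko/ko. The median log2 fold change (ko/ko over wt/wt) was -0.05 over the members and 0.00 over all genes.

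The abundant members had small fitted differences. The log2 fold change was 0.06 (SE 0.12) for mt-Cytb, 0.05 (SE 0.15) for mt-Nd1, -0.02 (SE 0.20) for mt-Nd4, -0.05 (SE 0.15) for mt-Nd2 and 0.06 (SE 0.09) for mt-Nd5. The rRNAs were at 0.09 (SE 0.10) for mt-Rnr2 and 0.13 (SE 0.11) for mt-Rnr1. The complex IV members were at -0.19 (SE 0.11) for mt-Co1, 0.20 (SE 0.20) for mt-Co2 and 0.15 (SE 0.19) for mt-Co3, and mt-Atp6 at 0.22 (SE 0.17). mt-Nd6 was at -0.06 (SE 0.12). mt-Nd3, at -0.71 (SE 0.46), and mt-Nd4l, at 0.14 (SE 0.49), had wide errors, and leaving out 1 replicate moved mt-Nd3 from -1.14 to -0.18 and mt-Nd4l from -0.33 to 0.59. Their pseudogenes were at -0.85 (SE 0.47) for Gm28438 and 0.01 (SE 0.46) for Gm10222.

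mt-Atp8 had the lowest value of the 15 mRNAs and rRNAs, -1.87 (SE 0.42, voom-limma adjusted p = 0.150, 0.0139 to 0.557 over 19 alternatives) in the whole sample. Without ko/ko replicate 1 it passed the test (log2 fold change -2.45, voom-limma adjusted p = 0.0193), where 242 genes (1.05% of all) were called, 240 of them lower in ko/ko. It was the only 1 of 34 members whose ko/ko samples all lay below the wt/wt samples, as 7.33% of all genes tested did, and no member lay wholly above, as 4.2% of all genes did.

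In the types, 1 member was called. In Fibroblast proliferating 30 members were tested and mt-Atp8 fell, while 0.624% of the 18113 genes tested were called there and 6.79% had an unadjusted p below 0.05, as did 2 of the members. Its level was 2.30, 3.48 and 3.05 CPM in wt/wt and 1.35, 0.739 and 0.536 in ko/ko, 351 UMIs in all. No ko/ko sample reached the lowest wt/wt sample, and the share of all genes for which this held there was not computed. The log2 fold change was -1.83 (SE 0.32, voom-limma adjusted p = 0.0469). Over 19 alternative settings the adjusted p ran from 0.000108 to 0.224, with 11 of them below 0.05. Some of the 11 could not change the result. Leaving out cells of under 500 genes or sub-cluster 8 gave the same fit, and adding the pseudogenes did not alter the counts of mt-Atp8. Among the settings that lost the call were edgeR (adjusted p = 0.0620), batch as a covariate (0.0504) and leaving out cells above 20% mitochondrial UMIs (0.0552). It was also lost without wt/wt replicate 2, without wt/wt replicate 3 or without ko/ko replicate 2 (voom-limma adjusted p = 0.208, 0.224 and 0.219). Within batch 1, without ko/ko replicate 3, it was -1.54 (voom-limma adjusted p = 0.0437). Batch as a covariate takes the same sample out of the comparison, so both settings are near repeats, on either side of 0.05.

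All 113 genes called in Fibroblast proliferating were lower in ko/ko. That count rested on single libraries: it was 0 without wt/wt replicate 2, wt/wt replicate 3 or ko/ko replicate 2 and 0 with the replicate number as a block. It was 290 without ko/ko replicate 1 and 226 without ko/ko replicate 3, of which 28 were higher in ko/ko. edgeR called 62 genes. The longest annotated transcript of the 111 genes with a length among the 113 called by voom-limma had a median of 447 bases, against 2753 over all genes tested there, and mt-Atp8 is 204 bases long. The part that transcript length has in the mt-Atp8 result was not tested.

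mt-Atp8 was also lower in the other types in which it had more than a few UMIs, without passing the test. In Fibroblast it had 2.02, 2.94 and 3.29 CPM in wt/wt and 1.62, 0.370 and 0.570 in ko/ko (log2 fold change -1.97, SE 0.43, voom-limma adjusted p = 0.136, and 0.0205 without ko/ko replicate 1, where 1.15% of all genes were called, 233 of 234 lower). In RPE, where it was left out by the filter, it had 1.49, 3.58 and 2.17 in wt/wt and 1.40, 0 and 0.664 in ko/ko, from 69 UMIs. In Fibroblast 2 it was at -2.45 (SE 1.04, voom-limma adjusted p = 0.768), and the samples overlapped. Without ko/ko replicate 2 this value was -0.62 and without ko/ko replicate 1 it was -3.61, while edgeR gave -1.21, DESeq2 -1.25 and the block -1.59.

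**Figure D5:**
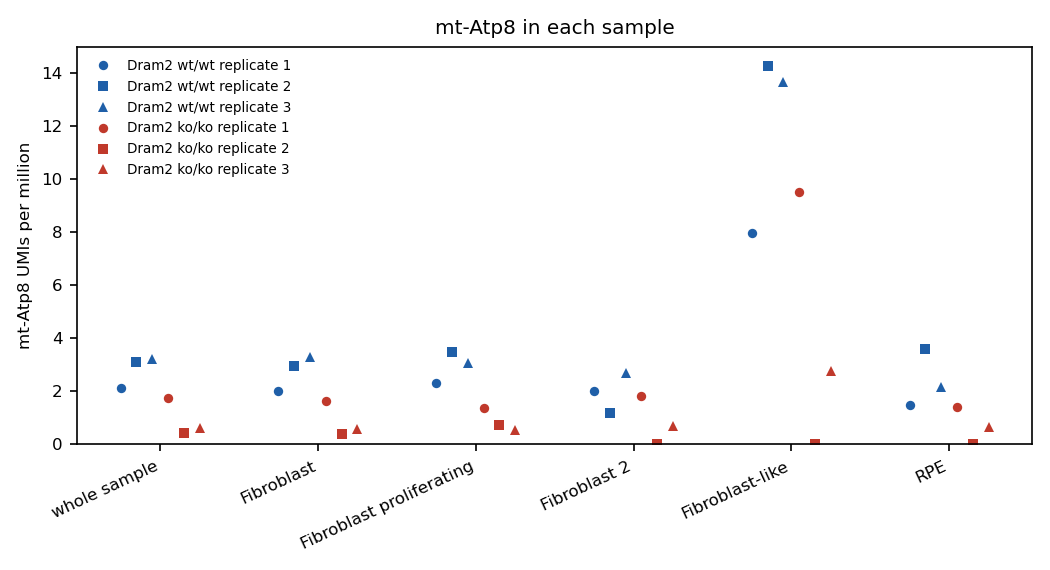
mt-Atp8 CPM in each of the 3 wt/wt (blue) and 3 ko/ko (red) samples, for the whole sample and 5 cell types. In the whole sample, Fibroblast, Fibroblast proliferating and RPE every ko/ko point is below every wt/wt point, while in Fibroblast 2 and Fibroblast-like they overlap. The types are parts of the same samples and are not separate evidence. In the whole sample 7.33% of all genes tested lay wholly below in this way, and that share was not computed for the types.

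No member was called by voom-limma in the remaining types. In Fibroblast 31 were tested (0.00503% of all genes tested were called, and 2 members had an unadjusted p below 0.05) and in Fibroblast 2 there were 24 (0.222% of all genes, 2 members). In Pericyte 16 were tested (0.0118% of all genes, 0 members) and in Myeloid 15 (0.0296% of all genes, 2 members). In Fibroblast-like, RPE and Endothelial 19, 20 and 12 were tested, with 0% of all genes called and 0 members below an unadjusted p of 0.05. The share of all genes tested with an unadjusted p below 0.05 was 7.18% in Fibroblast, 6.2% in Fibroblast 2, 5.9% in Pericyte, 5.94% in Myeloid, 5.08% in Fibroblast-like, 4.65% in RPE and 5.24% in Endothelial. edgeR called 0 members in each of these 7 types, and DESeq2 called 0 except mt-Atp8 in Fibroblast, where it called 320 genes (1.61% of all), 310 of them lower in ko/ko.

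Directions still differed among the types. In Fibroblast-like 18 of 19 members had a higher fitted value in ko/ko, with a median log2 fold change of 0.30 over the members against -0.02 over all genes. This type held the 168 cells of sub-cluster 8, of which 89 were in ko/ko replicate 1. Without them 3 of 18 were higher and the median was -0.20. It was 3 of 19 (-0.11) without cells of under 500 genes and 2 of 15 (-0.16) without cells above 20% mitochondrial UMIs. Without wt/wt replicate 1 it was 7 of 20 (-0.15) and without ko/ko replicate 1 it was 7 of 20 (-0.08). In Fibroblast 2, 18 of 24 were lower (median -0.18 against -0.01) and in Myeloid, with 2 samples of each genotype, 12 of 15 (median -0.32 against 0.01). Members share their cells and libraries and are not independent of each other.

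The genotype effect was compared between RPE and Fibroblast, the epithelium and the main stromal type of the culture, by an interaction term. Of 30 members tested, voom-limma called none, and 0% of the 19951 genes tested were called; 1 member had an unadjusted p below 0.05, as 1.86% of all genes did. edgeR called none and had 0 members below an unadjusted p of 0.05. For mt-Atp8 the difference of the log2 fold changes was 0.05 (SE 0.47, voom-limma adjusted p = 0.99993). In RPE alone the filter had left mt-Atp8 out for its low counts, so this value cannot show whether its genotype effect is alike there.

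Nuclear genes were read in 8 lists, on the making and use of the mitochondrial RNAs, on the upkeep and stress of mitochondria, on the respiratory complexes and on RNA kept in the nucleus. None of their genes was called in the whole sample by voom-limma or by edgeR. DESeq2 called 7 of the 154 tested, all lower in ko/ko: Cox7c, Atp5l, Atp5g1, Atp5e, Slirp, Phgdh and Ndufa2, named after their values were seen. Of all genes tested it called 378 (1.67%), and 358 of these were lower in ko/ko. An unadjusted p below 0.05 was reached in voom-limma by 0 genes of 4 lists and by the counts given below in the others, against 7.01% of all genes tested. Of the 19 genes for transcription and replication of the mitochondrial DNA, 15 had a higher and 4 a lower value in ko/ko (median log2 fold change 0.09), among them Tfb2m, a transcription initiation factor, at 0.28 (SE 0.23). Of the 20 for processing, stability and decay of the RNA, 14 were higher and 6 lower (median 0.05), 1 with an unadjusted p below 0.05, and Slirp, a partner of Lrpprc in mRNA stability, was at -0.65 (SE 0.17, adjusted p = 0.240). Of 15 genes of mitochondrial translation, some of them for ribosomal proteins, 13 were higher (median 0.12). Among them Taco1, which acts on mt-Co1 translation, was at 0.24 (SE 0.13).

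Of the 11 regulators of mitochondrial biogenesis tested, 7 were higher (median 0.05), with Ppara at 0.38 (SE 0.23). Of 23 mitophagy genes, 14 were higher (median 0.03), with the receptor Bnip3 at 0.20 (SE 0.11). Of 16 stress response genes, 10 were higher (median 0.04) and 3 had an unadjusted p below 0.05, with the chaperonin Hspe1 at -0.88 (SE 0.25, adjusted p = 0.283). Of 5 RNAs kept in the nucleus, 4 were higher (median 0.02) and 1 had an unadjusted p below 0.05, with Meg3 at -0.36 (SE 0.13, adjusted p = 0.554).

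The 45 listed nuclear subunits, chosen from those beside the members in the respiratory complexes, were split, 21 higher and 24 lower (median -0.02). Of these 45, 16 (35.6%) had an unadjusted p below 0.05 in voom-limma. The lowest were Atp5l at -1.45 (SE 0.23), a small ATP synthase subunit, and Cox7c at -1.41 (SE 0.21), a small complex IV subunit, both with a voom-limma adjusted p of 0.0798. Over 19 alternatives the adjusted p in the whole sample ran from 7e-07 to 0.371 for Cox7c and from 1.03e-05 to 0.371 for Atp5l. Both were called there by DESeq2, with batch as a covariate, without ko/ko replicate 1 and without ko/ko replicate 3, and in Fibroblast in 5 of 19 alternatives. The batch term takes ko/ko replicate 3 out of the comparison, so it and leaving out that sample are not separate settings. Both were called lower in Fibroblast proliferating (voom-limma adjusted p = 0.0297 for Atp5l and 0.0307 for Cox7c) and in Fibroblast 2 (0.0461 for each). They were the only 2 genes of the 8 lists that voom-limma called in any type. Both are among the 113 genes called in Fibroblast proliferating, whose longest transcripts had a median of 447 bases, against 2753 over all genes tested there. The part that transcript length has in the values of the 45 subunits was not tested. In Fibroblast proliferating both calls held in 15 of 19 alternatives and were lost with the block and without wt/wt replicate 2, wt/wt replicate 3 or ko/ko replicate 2 (voom-limma adjusted p up to 0.183 for Cox7c and 0.174 for Atp5l). In Fibroblast 2 they held in 12 of 19. They were lost there with edgeR, with library size alone, with the block, without each wt/wt replicate in turn and without ko/ko replicate 2 (voom-limma adjusted p up to 0.278). In both types, leaving out cells of under 500 genes or sub-cluster 8 changed no fit, so these settings add nothing to the counts that held.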

How the data were processed

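Single-cell RNA of cultured mouse RPE and choroid was measured with the 10x 3′ v2 chemistry. The deposited files hold UMI counts per gene and cell, made by the authors with Cell Ranger 3.1.0 on GRCm38 per the labels, and a table of cell annotations. Cell identifiers replace barcodes, so barcodes shared between libraries could not be counted. No doublet caller was run, free RNA was not subtracted and no cell was removed.

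Counts were summed per sample and cell type or sub-cluster where a sample had at least 10 cells. voom-limma (limma 3.58.1, the method of the study) was run after edgeR 4.0.16 filtering and TMM scaling, with Benjamini-Hochberg adjustment over all genes and a call at 0.05. DESeq2 1.42.0 and other settings were alternatives. Mitochondrial shares were tested by exact permutation over samples (scipy 1.17.1). The voom-limma step was tested on simulated data before use. Alternatives changed the tool, scaling, filter, cells and samples, and added batch or the replicate number to the fit. As ko/ko replicate 3 was the only sample of its batch, the batch term takes it out of the comparison and adjusts no other sample.

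Named were the mRNAs and rRNAs, the tRNAs at 1 CPM in any sample, members called, the pseudogenes above, and of each list at most the 3 genes with the largest fold change. Sequences and coordinates came from GENCODE M21. The members, lists and tests were chosen with earlier results of these data known. One marker gene of the annotation check is not reported here.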

Additional observations from a re-analysis of the deposited data

How the results depend on the processing

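Differences are ko/ko minus wt/wt. The differences of the mitochondrial share could pass no test at these sample sizes. Leaving out 1 replicate turned their direction in each unit except Fibroblast 2, Myeloid and sub-cluster 7. In the whole sample the difference was -0.0395 percentage points as a median over cells, -0.00925 over the 13 mRNAs only, -0.0698 without cells of under 500 genes, -0.0810 without cells of over 20% mitochondrial counts and -0.0750 without sub-cluster 8. The last 3 settings turned Fibroblast-like to -0.689, -0.197 and -0.565. The mean over cells turned Fibroblast to 0.120, RPE to 0.0893, Endothelial to 0.0235 and sub-cluster 1 to 0.0404. The median over cells turned RPE to 0.134, sub-cluster 4 to -0.0537 and sub-cluster 6 to -0.607. Without the 5% of cells with most UMIs RPE was at 0.0201 and sub-cluster 4 at -0.0179, and with the 13 mRNAs only sub-cluster 8 was at -0.799. Adding the 7 pseudogenes, an alternative chosen after seeing the data, turned no direction, but it could not add reads counted at neither locus.

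Leaving out each replicate in turn moved the share difference between -0.257 and 0.245 in the whole sample, -0.266 and 0.213 in Fibroblast, -0.186 and 0.236 in Fibroblast proliferating, -0.819 and 5.19 in Fibroblast-like, -0.365 and 0.272 in RPE, -0.196 and 0.380 in Pericyte, -0.292 and 0.152 in Endothelial, -0.540 and -0.0390 in Fibroblast 2, and -0.967 and -0.499 in Myeloid. In the sub-clusters the ranges were -0.267 to 0.201 (1), -0.2145 to 0.233 (2), -0.522 to 0.0141 (3), -0.189 to 0.231 (4), -1.54 to 0.0700 (5), -0.997 to 0.849 (6), -0.380 to -0.0169 (7), -0.936 to 4.43 (8) and -0.2002 to 0.406 (9).

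The number of members called rose to 1, mt-Atp8, with DESeq2 in the whole sample (log2 fold change -1.62, adjusted p = 0.0139) and in Fibroblast, and without ko/ko replicate 1 in both. Over all genes DESeq2 then called 378 and 320 and the fit without that library 242 and 234, in the same order. In Fibroblast proliferating it fell from 1 to 0 with edgeR (-1.76), library size alone (-1.83), batch as a covariate (-1.55) and without cells of over 20% mitochondrial counts (-1.82). Leaving out each replicate gave 0 or 1 members in these 3, and a log2 fold change of mt-Atp8 from -2.45 to -1.48 in the whole sample and from -2.17 to -1.54 in Fibroblast proliferating. In the other types and for the interaction it stayed at 0 under every alternative run. In Myeloid a left-out sample leaves 1 sample of a genotype, whose spread is assumed to be that of the other.

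With replicate block the count in Fibroblast proliferating was 0 and mt-Atp8 was at -1.79 (adjusted p = 0.122). The samples share only a number: deviations of same-numbered samples correlated at 0.0987, -0.429 and 0.028, and the block changed no other call of a member. Over all genes it moved the count called from 113 to 0 in Fibroblast proliferating, from 33 to 2 in Fibroblast 2, from 1 to 0 in Fibroblast and Pericyte and from 2 to 32 in Myeloid.

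Of the log2 fold changes of the other mRNAs and rRNAs in the whole sample, mt-Nd1 turned to -0.018 with batch as a covariate. Leaving out 1 replicate turned the sign of 9 of these mRNAs and rRNAs. Their ranges were -0.10 to 0.15 for mt-Nd1, -0.17 to 0.079 for mt-Nd2, -0.026 to 0.46 for mt-Co2 and -0.089 to 0.32 for mt-Co3. They were -0.33 to 0.59 for mt-Nd4l, -0.23 to 0.14 for mt-Nd4, -0.0095 to 0.10 for mt-Nd5, -0.19 to 0.065 for mt-Nd6 and -0.059 to 0.13 for mt-Cytb. Turned signs of single tRNAs are not given. Depth limits mt-Atp8 and most tRNAs, with means under 2 CPM.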
